A study of Mus musculus with 2 samples.

Results

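The 9 mature miRNAs described here are markers of liver and of striated muscle, taken by name from the 1982 mature miRNAs in the count table of plasma extracellular vesicles (EVs). The liver members were 4 species, both arms of mmu-miR-122 with mmu-miR-192-5p and mmu-miR-194-5p, and the muscle members were 5, mmu-miR-1a-3p, mmu-miR-133a-3p, mmu-miR-133b-3p, mmu-miR-206-3p and mmu-miR-208b-3p. The donors were C57BL/6 mice of wild type genotype, fed normal chow and 8 weeks of age, which had either stayed sedentary (sEVs) or been taken through 3 days of treadmill acclimation and then a single run of 60 min to exhaustion at speeds rising from 10 to 24 m/min (eEVs). For each group, plasma of 20 mice was pooled to about 10 ml, EVs were taken by size exclusion chromatography, and 1 small RNA library was read over 50 nt, so that no spread between mice can be given. The sEV library held 2851 miRNA counts on 82 species and the eEV library 820 counts on 66. Any difference below is one between these 2 libraries.

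miRNAs are short RNAs that guide Argonaute proteins to messenger RNAs, mainly through the seed, bases 2 to 8 from the 5′ end. mmu-miR-122-5p is the dominant miRNA of hepatocytes and acts in lipid metabolism. The miR-192 and miR-194 families are found in liver, gut and kidney. miR-1a and the miR-133 family are made in heart and skeletal muscle, miR-206 is particular to skeletal muscle, and miR-208b lies inside a myosin heavy chain gene and belongs to heart and slow muscle. In plasma such miRNAs are read as traces of their tissue of origin, and hard exercise is known to release the muscle group.

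The sequences of 5 of the 7 uncounted members are shown, so that their seeds and near copies can be compared. The sequences of mmu-miR-1a-3p, mmu-miR-133a-3p and both arms of mmu-miR-122 are not shown. Those printed are RefSeq mature sequences on GRCm38.p6, written 5′ to 3′ with the seed in capitals.
mmu-miR-192-5p: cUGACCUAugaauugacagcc
mmu-miR-194-5p: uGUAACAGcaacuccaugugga
mmu-miR-206-3p: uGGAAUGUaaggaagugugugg
mmu-miR-133b-3p: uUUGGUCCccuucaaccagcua
mmu-miR-208b-3p: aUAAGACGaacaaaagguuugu
Beside them stand 2 relatives of the wider list that carry the same seed as a member, the gut and kidney miRNA mmu-miR-215-5p and the heart miRNA mmu-miR-208a-3p.
mmu-miR-215-5p: aUGACCUAugauuugacagac
mmu-miR-208a-3p: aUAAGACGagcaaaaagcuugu
mmu-miR-192-5p and mmu-miR-215-5p share the seed UGACCUA and differ at 3 of 21 positions. mmu-miR-208b-3p and mmu-miR-208a-3p share UAAGACG and differ at 3 of 22 positions. The seed GGAAUGU of mmu-miR-206-3p also occurs in mmu-miR-6349 and mmu-miR-6382 of the same RefSeq table, which had no counts. Among the members, mmu-miR-1a-3p is of the same seed family as mmu-miR-206-3p, and mmu-miR-133a-3p is a near copy of mmu-miR-133b-3p, which is background and was not computed here. None of the 7 species printed had a count in either library, so no read was divided between them.

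Only the liver miRNA mmu-miR-122 was counted, and only in sEVs. On the 5p arm 16 counts fell in sEVs and 0 in eEVs, and on the 3p arm 4 and 0. The other 7 members, which include every muscle member, had 0 counts in both libraries. Thus 2 of 9 members were detected in sEVs, where 4.14% of all listed miRNAs had at least 1 count, and 0 of 9 in eEVs, where 3.33% did. The listed names include many miRNAs of other tissues, so these shares describe the table rather than a reference for abundant tissue markers. In the plot of shares by member, mmu-miR-122-5p is the only one whose sEV interval lies mostly above the eEV limit.

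**Figure D1:**
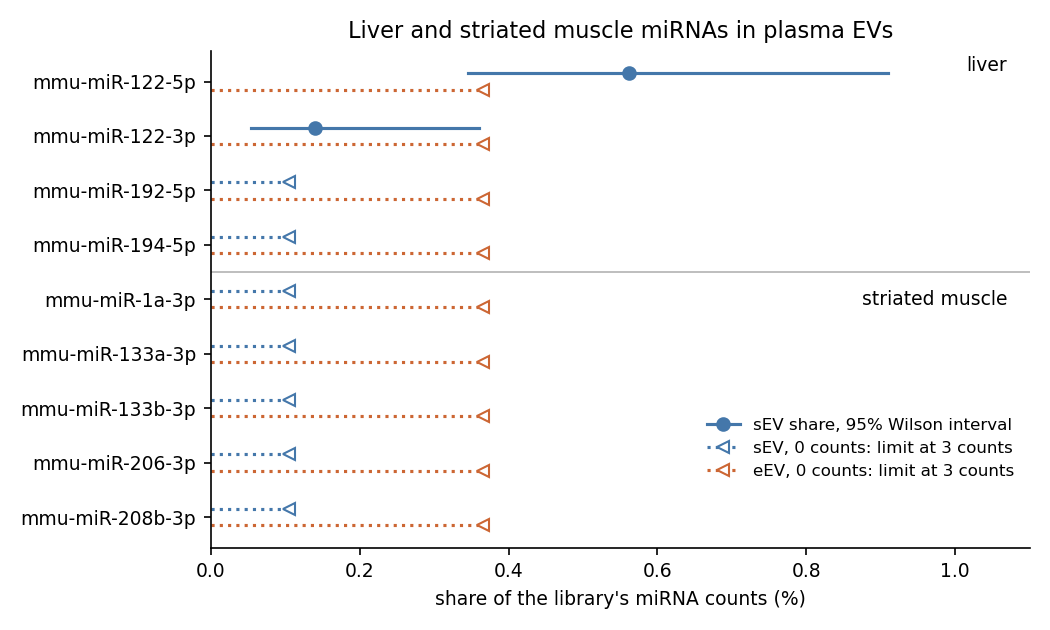
Share of the library's miRNA counts in percent (horizontal) for each of the 9 members, with sEVs in blue and eEVs in orange. Points with lines are shares with 95% Wilson intervals, and open triangles mark the limit that 0 counts allow, 0.105% in sEVs and 0.366% in eEVs. Only both arms of mmu-miR-122 have a point, both in sEVs.

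Pooled over the liver members, 20 of 2851 counts fell on them in sEVs, a share of 0.702% (95% Wilson interval 0.455% to 1.08%). In eEVs the pool had 0 of 820 counts, which allows a share of up to 0.366%, taken as 3 counts. At the sEV share, 5.75 counts would have fallen on the liver pool in a library of the eEV depth. Set against 3 counts, the pooled share found was at least 1.92-fold lower in eEVs. This figure leaves out the counting error of the 20 counts, and the exact 95% interval of the fold change, given both counts, reached from 0 up to 0.704. This rested on 1 species and on the scaling. Without mmu-miR-122-5p the upper end was 5.27. The size factors of DESeq2, which raise every log2 fold change by 0.52, put it at 1.01, so that the interval then included no change. So did 1 count added to each detected species, a setting chosen after seeing the data, with an upper end of 1.17 for the liver pool and for all 9 members. With 1 count added to each listed species the upper end was 0.837 for the liver pool and 1.16 for all 9 members. That setting adds 1982 counts to each library, more than the 820 found in eEVs, so its values largely reflect the added counts. Reads carry no molecular identifiers, so these intervals and limits cover counting error only. In a bulk pool, fewer vesicles from the liver, less miRNA per vesicle and less miRNA carried outside vesicles cannot be told apart. The paper names lipoprotein contamination as a common limit of this isolation and found ApoB in its EV-rich fractions.

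mmu-miR-122-5p and mmu-miR-122-3p were the only members that could be tested one by one. The two-sided Fisher's exact test of each species against the rest of its library, with Benjamini-Hochberg adjustment over the 117 detected species, called 23.1% of them at an adjusted p below 0.05, and 4.27% as lower in eEVs. Of the members 0 of 2 were called. For mmu-miR-122-5p the unadjusted p was 0.0311 and the adjusted p 0.121, with an upper end of the exact interval at 0.902. For mmu-miR-122-3p they were 0.581 and 0.819, with an upper end of 5.27. The exact test of edgeR, with the coefficient of variation between libraries set to 0.1, 0.2 or 0.4, also called 0 of 2, and over all 117 species it called only 5, 4 and 1. At an unadjusted p below 0.05, 1 of the 2 members passed, against 39 of the 117 species in either direction and 9 (7.69%) as lower in eEVs. Such a test compares the reads of 2 libraries, not exercised with sedentary mice.

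The depth of the eEV library set what an absence there can show. With 0 counts in eEVs, the unadjusted p of Fisher's exact test first fell below 0.05 at 14 counts in sEVs (p = 0.0498) and was 0.0863 at 13. To reach the largest p that was called across all species, 0.0111, 21 counts in sEVs would have been needed. The 16 counts of mmu-miR-122-5p lie between these marks and the 4 of the 3p arm lie far under both. At their sEV shares, the 5p arm would have given 4.60 counts and the 3p arm 1.15 in a library of the eEV depth.

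**Figure D2:**
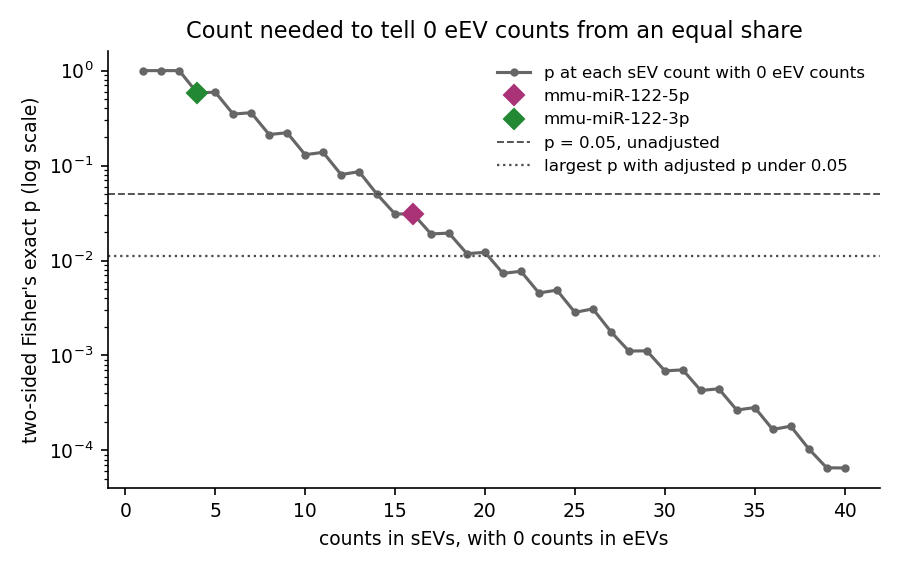
Two-sided Fisher's exact p on a log scale (vertical) for each number of sEV counts (horizontal) when eEVs have 0 counts, at the depths of both libraries. The dashed line marks 0.05, the dotted line the largest p called after adjustment, 0.0111. mmu-miR-122-5p, at 16 counts, lies between the lines and mmu-miR-122-3p, at 4 counts, above both.

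A count in sEVs with 0 in eEVs was common, and 62.2% of the 82 species counted in sEVs had it, as 2 of the 2 detected members did. mmu-miR-122-5p ranked 17th in sEVs, and of the 17 species with 16 or more counts there, 3 had 0 counts in eEVs. The other two were both arms of mmu-miR-1843b. Of the 10 other species with 11 to 24 counts in sEVs, within 1.5 times of mmu-miR-122-5p, 5 had 0 counts in eEVs and 5 had counts. With arms of identical counts taken once, these were 4 and 4. The 5 at 0 were mmu-miR-126a-3p (14 counts in sEVs), mmu-miR-872-3p and mmu-miR-1291 (13 each) and both arms of mmu-miR-101b (12 each). At the other end, mmu-let-7c-5p, at 12 counts in sEVs and 13 in eEVs, was the only one of the 10 that was called (adjusted p = 0.0159). mmu-miR-122-5p had more counts in sEVs than any of these 10 and was not called. All 10 species with exactly 4 counts in sEVs, mmu-miR-122-3p among them, had 0 in eEVs, and these are 7 with arms of identical counts taken once.

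**Figure D3:**
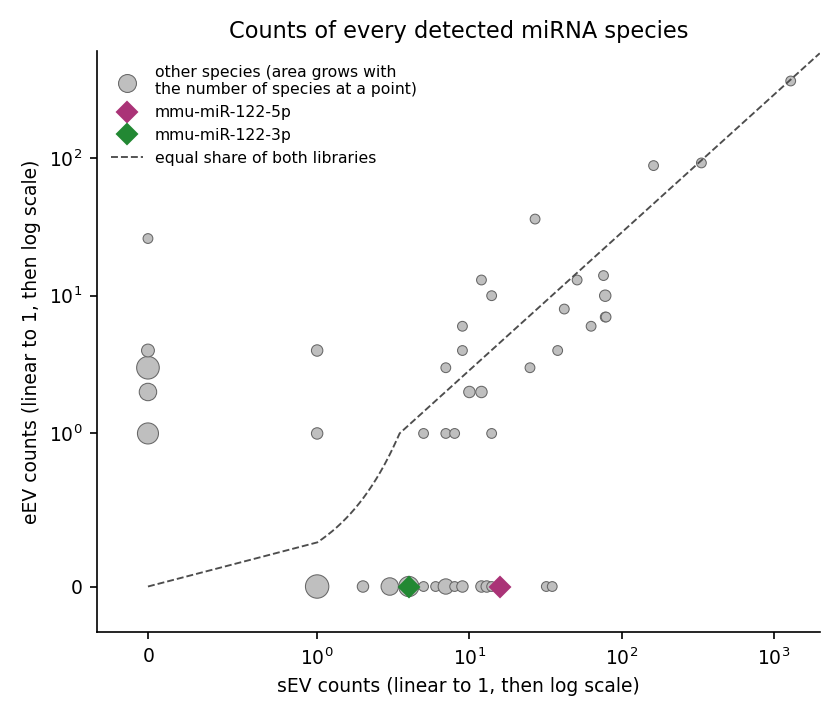
Counts of each of the 117 detected miRNA species in sEVs (horizontal) and eEVs (vertical), on axes that are linear up to 1 count and logarithmic beyond. Circle area grows with the number of species at a point, and the dashed line marks an equal share of both libraries. Both arms of mmu-miR-122, drawn as diamonds, lie on the row of 0 counts in eEVs, with 2 points, those of mmu-miR-1843b, farther right.

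Both arms of the mmu-miR-122 hairpin were present in sEVs. The 5p arm, the strand that acts in hepatocytes, held 80.0% of the 20 counts (exact 95% interval 56.3% to 94.3%). Among the 58 counted hairpins with both arms in the table, the arms of 22 carried the same counts as each other in both libraries, so that such arms cannot be read as separate measurements. mmu-miR-122 was not among them. Arms were paired here only where their names differ in nothing but 5p and 3p, which leaves out hairpins whose arms carry a copy number, such as those of mmu-let-7a and mmu-miR-16. Of the hairpins paired in this way, 7 had both arms counted in sEVs without matching in both libraries, and their 5p shares ran from 39.1% for mmu-miR-126a to 80.0% for mmu-miR-122. Those of mmu-miR-712, mmu-miR-142a, mmu-miR-1843b, mmu-miR-21a and mmu-let-7b ran only from 50.0% to 58.3%. Near-equal arms thus also occurred outside the identical pairs, and whether arms share reads was not tested. The hairpin gene Mir122 spans 65248861 to 65248926 of chromosome 18 (GRCm38, plus strand) and overlaps an exon of AC157910.3, a long noncoding RNA.

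No muscle miRNA was counted in either library, after 60 min of running or at rest. Each of mmu-miR-1a-3p, mmu-miR-133a-3p, mmu-miR-133b-3p, mmu-miR-206-3p and mmu-miR-208b-3p had 0 of 2851 counts in sEVs, and so had their pool, which allows a share of up to 0.105%. In eEVs the pool had 0 of 820 counts, which allows up to 0.366%. No fold change can be given, and a share of muscle miRNAs below 0.366% in eEVs would be compatible with the 0 counts found there. With both libraries added, 0 of 3671 counts allow a share of up to 0.0817%. Within the sEV library mmu-miR-122-5p, with 16 counts, was at least 5.33-fold above any single muscle member and the liver pool at least 6.67-fold above the muscle pool, each set against 3 counts and without the counting error of the counts above them. All 20 of the liver and muscle counts in sEVs were liver (100% of the sum, exact 95% interval 83.2% to 100%). Differences in how well each species is ligated into a small RNA library were not tested. The same ratio has no value in eEVs, where both pools were at 0.

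The uncounted members come from several places in the genome, and their neighbours were uncounted too. The hairpins Mir206 (chromosome 1 of GRCm38, 20679010 to 20679082) and Mir133b (20682769 to 20682887) are 3686 bases apart in exons of the long noncoding RNA Gm28653. Mir208b lies on chromosome 14 from 54975700 to 54975776, in an intron of Myh7, which encodes the slow myosin heavy chain. mmu-miR-1a-3p and mmu-miR-133a-3p are each made from a pair of hairpins. One pair, Mir1a-1 (chromosome 2, 180389048 to 180389124) and Mir133a-2 (180398379 to 180398482), overlaps no other annotated gene. The other pair, Mir1a-2 and Mir133a-1, lies on chromosome 18, in introns of Mir133a-1hg and opposite Mib1. Of the liver members, Mir194-2 (chromosome 19, 6264643 to 6264728) and Mir192 (6264844 to 6264932) are only 115 bases apart, and a second copy of mmu-miR-194-5p, Mir194-1 (chromosome 1, 185313319 to 185313385), lies 195 bases from Mir215, in an intron of 2010103J01Rik and opposite Iars2. mmu-miR-194-5p has one mature sequence from both copies, and neither copy nor neighbour gave a count.

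A wider list of 24 other arms and relatives had 0 counts in both libraries. Of the 9 liver relatives, among them mmu-miR-192-3p, mmu-miR-215-5p, mmu-miR-148a-3p and mmu-miR-802-5p, 0 were counted in either library. Of the 15 muscle relatives, among them mmu-miR-499-5p, mmu-miR-208a-3p and mmu-miR-133a-5p, 0 were counted as well. This list includes mmu-miR-486a-5p and mmu-miR-486b-5p, which muscle and red cells both hold. Over all listed miRNAs, 4.14% had a count in sEVs and 3.33% in eEVs, so 0 of these 24 lies near those shares. At these depths the zeros do not show that other liver or muscle miRNAs were absent. Among the names looked at, the liver counts were those of mmu-miR-122 alone, and the name "liver and striated muscle miRNAs" covers 1 hairpin with counts.

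Among the marker lists, those of blood cells held the most counts in the same libraries. The lists were written from general knowledge and differ in length, so this ranking depends on which names were listed. The red cell list had 34 counts in sEVs, 1.19% (0.855% to 1.66%), and 36 in eEVs, 4.39% (3.19% to 6.02%), a fold change of 3.68 (exact 95% interval 2.24 to 6.06). Of its 2 counted species, mmu-miR-451a had 27 counts in sEVs and 36 in eEVs (fold change 4.64), and mmu-miR-16-5p had 7 and 0, with an exact interval that reached up to 2.41 and included no change. The other red cell markers mmu-miR-144-3p, mmu-miR-144-5p and mmu-miR-486a-5p were at 0 in both. The white blood cell list had 171 counts in sEVs, 6.00% (5.18% to 6.93%), and 22 in eEVs, 2.68% (1.78% to 4.03%), a fold change of 0.447 (0.273 to 0.699). Other scalings were not applied to the marker lists. That upper end is close to the 0.704 of the liver pool, which DESeq2's size factors put at 1.01. This interval also treats the near-equal arms of mmu-miR-142a as separate counts. Its 5p and 3p arms of mmu-miR-142a had 79 and 76 counts in sEVs and 7 and 14 in eEVs, and mmu-miR-150-5p had 7 and 1, mmu-miR-223-3p 5 and 0 and mmu-miR-155-5p 4 and 0. The endothelial list, both arms of mmu-miR-126a, had 23 and 6 counts, 0.807% and 0.732%, a fold change of 0.907 (0.302 to 2.29). Of its arms, the 5p arm had 9 and 6 counts and the 3p arm 14 and 0. In sEVs the liver pool, at 0.702%, was thus near the endothelial list. In eEVs the endothelial list had 6 counts, all on the 5p arm, and the liver pool 0. Neuronal markers (mmu-miR-124-3p and mmu-miR-9-5p) and the islet marker mmu-miR-375-3p were at 0 in both libraries, as the muscle members were. Shares of a library sum to a whole, so a higher share of some species in eEVs lowers the sum of the others. The share of mmu-miR-466i-5p was 5.68% in sEVs and 10.7% in eEVs, that of mmu-miR-451a 0.947% and 4.39%, and that of mmu-miR-3470b 0% and 3.17%. Their part in the absence of mmu-miR-122 from eEVs was not tested.

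**Figure D4:**
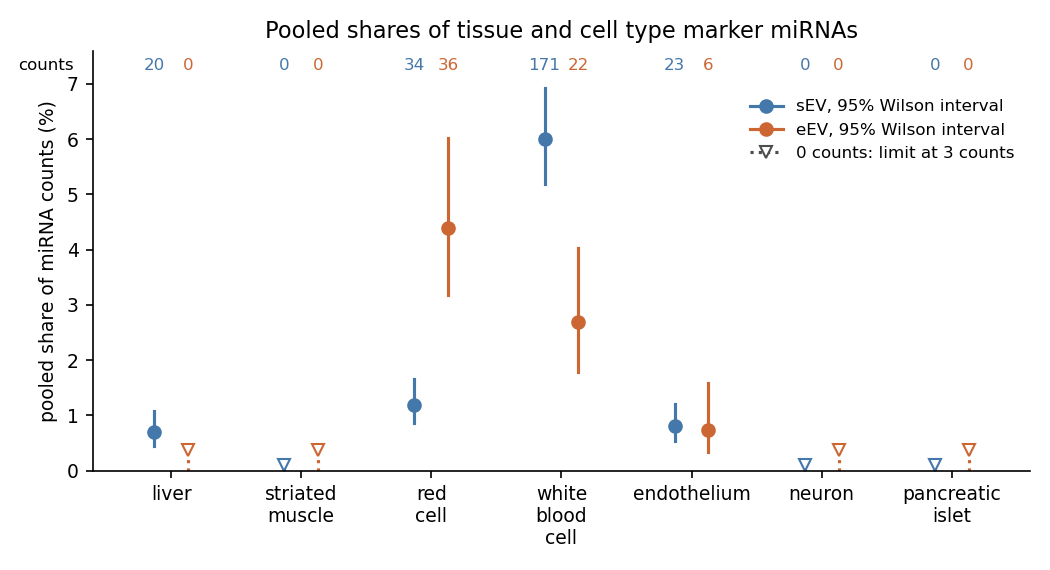
Pooled share of miRNA counts in percent (vertical) for each marker list (horizontal) in sEVs (blue) and eEVs (orange). Points with lines are shares with 95% Wilson intervals, open triangles mark the limit of 3 counts where a list had 0, and the numbers along the top are the counts. The liver list has 20 counts in sEVs and 0 in eEVs, while the muscle, neuron and islet lists have 0 in both.

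mmu-miR-23a-3p alone made up 45.2% of sEV and 44.1% of eEV counts and so sets much of each total. Over the remaining 1562 and 458 counts, the liver pool was 1.28% of sEVs (0.830% to 1.97%) and had 0 counts in eEVs, which allows up to 0.655%. The sEV interval lay above the eEV limit here as with the full totals, and the exact interval of the fold change reached up to 0.691.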

How the data were processed

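The authors prepared TruSeq small RNA libraries, sequenced them on a HiSeq2000 and deposited a table of raw counts per mature miRNA, 1 library per group, with libraries as rows. A normalized table, also deposited by the authors, gives each count as a fraction of the library total. The aligner, the miRNA reference and the genome build are not given in the sources used here. Of the 1982 names listed, 67 are of other species, with 0 counts in both libraries.

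Members were summed by tissue. Shares were given 95% Wilson intervals, fold changes exact intervals conditional on both counts, and 0 counts a limit of 3 counts. Every species detected at 1 or more counts was tested by two-sided Fisher's exact test with Benjamini-Hochberg adjustment. The quasi-likelihood test of edgeR needs replicates and could not be run. Pools were given no p-value. The members, lists and tests were chosen with earlier results of these data known. Named are all members, the marker lists, examples of the uncounted relatives, and species within 1.5 times the sEV count of mmu-miR-122-5p. Statistics were tested on simulated data in 20 pairs of libraries. Positions are from GENCODE M21 (GRCm38), matched by gene name, and sequences from RefSeq (GRCm38.p6), which matched 5 of 9 members. Alternatives were the normalized table, TMM factors (edgeR 4.0.16), size factors (DESeq2 1.42.0), other totals, 1 added count, other member sets and the exact test of edgeR at an assumed coefficient of variation of 0.1, 0.2 or 0.4. Python 3.11.15, scipy 1.17.1 and R 4.3.3 were used.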

Additional observations from a re-analysis of the deposited data

How the results depend on the processing

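The upper end of the exact interval of the liver fold change was 0.704 for the liver pool and for all 9 members. It stayed below 1 with TMM factors, totals without mmu-miR-23a-3p and identical arms counted once (chosen after seeing the data). The normalized table and the added relatives gave the same 0.704 and could not have moved it. That table holds the same counts as fractions, and the relatives had 0 counts. The upper end reached 1.01 with DESeq2's size factors for both. With 1 count added to each listed species, which puts 1982 added counts into each library, it was 0.837 for the liver pool and 1.16 for all 9 members. With 1 count added to detected species only (chosen after seeing the data) it was 1.17 for both. It was 5.27 for the liver pool without mmu-miR-122-5p. At 5 or more counts 1 member rather than 2 was detected in sEVs. No member was called in any of the 8 alternatives. The adjusted p of mmu-miR-122-5p ran from 0.106 to 0.428, and that of mmu-miR-122-3p, over 7 alternatives, from 0.668 to 1. Over all species, 27 calls became 13 with 5 or more counts required and 5, 4 and 1 in edgeR's exact test with an assumed coefficient of variation of 0.1, 0.2 and 0.4, which changes both the test and the variation assumed. For the muscle pool no fold change was taken under scaling or with an added count, since both libraries were at 0 and a fold would then come from the totals alone. No paired analysis was possible because each group has 1 library.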
